A study of Mus musculus with 8 samples.

Results

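The SOX proteins are transcription factors that share an HMG box, a domain that binds short AT-rich DNA motifs and bends the helix. They are sorted by sequence into lettered subgroups, and 10 of them were examined here in mouse Paneth cells: Sox2 (subgroup B1), Sox4, Sox11 and Sox12 (subgroup C), Sox5, Sox6 and Sox13 (subgroup D), Sox9 (subgroup E), and Sox17 and Sox18 (subgroup F). The genes were taken from a fixed list of symbols matched to the Ensembl identifiers of the count table, and all 10 were found among its 53801 genes. Several SOX proteins bind β-catenin or its partners of the Tcf/Lef family and modulate Wnt signalling. In the intestinal crypt Sox9 is a Wnt target that is required for Paneth cells to form, and Sox4 is known from tuft and enteroendocrine progenitors.

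RNA was sequenced from EpCAM+ Cd24+ cells of the small intestine sorted as Paneth cells, the granule-bearing cells at the crypt base. The controls were 4 β-catGOF; Mll1+/- mice, heterozygous for the histone methyltransferase Mll1, and the knockouts were 4 β-catGOF; Mll1-/- mice. Both groups thus carried stabilised β-catenin (deletion of exon 3) and no group without it was analysed here. The methods paragraph on the sort names Lgr5-EGFP-IRES-CreERT2 littermates with Mll1flox/+ and Mll1flox/flox alleles and does not name β-catGOF, whereas the labels' design text does. Cre was driven by Lgr5, a gene of crypt stem cells. The gate did not select for recombination, and the study examined Mll1 protein in crypts by immunohistochemistry, which is not analysed here. Mice were 4 to 6 weeks old at induction, received 1 mg tamoxifen on 3 consecutive days per the labels and were examined 10 d later.

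Total counts on genes were between 13037832 and 14380240 per library. Counts were scaled by TMM factors to a common library size and are given as normalized CPM. Paneth genes dominated every library: the summed level of 8 Paneth markers, among them the defensin Defa24 and the lysozyme Lyz1, was between 299029 and 907605 normalized CPM. Markers of other Cd24-bearing epithelial cells were present at lower levels. The 8 enteroendocrine markers summed to 45.4 to 601 normalized CPM and the 6 tuft markers to 84.8 to 519. Sums were larger for 7 goblet markers (7883 to 19001, of which Spink4 alone 6226 to 14980) and 7 stem cell markers (303 to 1561). The 8 stromal markers together stayed between 1.09 and 1.91. Knockout 3 stood apart, with reads on 19662 genes, fewer than the 22623 to 26074 seen elsewhere, a TMM factor of 0.632 against 0.821 to 1.34, and the highest Paneth sum, so values without it are given for genes whose result it moves most. The targeted gene is Kmt2a, which encodes Mll1. Its counts were 719, 469, 268 and 284 for controls 1 to 4 and 523, 447, 328 and 468 for knockouts 1 to 4 (log2 fold change −0.06, standard error 0.24, adjusted p = 0.995). This value sums all exons and does not show whether the targeted part was deleted.

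None of the Sox genes that could be tested was called different between the genotypes. Of the 10 genes, 7 had enough counts to be tested (Sox4, Sox6, Sox9, Sox11, Sox12, Sox13 and Sox17), and Sox2, Sox5 and Sox18 had not. A gene was called when its adjusted p was 0.05 or lower and its log2 fold change 0.5 or more in size (edgeR's quasi-likelihood test). This held for 0 of the 7, and for 25 of all 13439 genes tested, 0.186%, of which 0.156% were higher and 0.0298% lower in the knockouts. An unadjusted p under 0.05 was reached by 0 of the 7 and by 6.88% of all tested genes (4.35% higher, 2.53% lower). The share of all tested genes called was 1.03% with DESeq2, 0.707% with limma-voom and 0.283% with edgeR at a false discovery rate of 10%, and 0 of the 7 were among them. With no filter on low counts, 0.783% of genes were called, and 1 of the 10 Sox genes, Sox18, was among them. The groups overlapped in all 10 Sox genes, whereas they did not overlap in 4.52% of all tested genes. Log2 fold changes were above 0 in 4 of the 7, against 50.9% of all tested genes, with a median of 0.12 beside 0.01 over all tested genes. A p that misses the threshold does not show equal levels, and the intervals given with each tested gene, 2 standard errors to either side, state which differences these libraries allow.

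These 4 promoters are shown because they belong to the most abundant members with a RefSeq entry, Sox4, Sox6 and Sox13, with a Sox6 start that held more matches than any other member promoter. Of the 10 members, 7 (Sox2, Sox4, Sox5, Sox6, Sox11, Sox12 and Sox13) matched an entry, with 12 promoters in all because Sox6 has 6 starts. Each runs from 250 bases before to 50 bases after a transcription start on GRCm38.p6, the build of the counts, and is written 5′ to 3′ on the gene's strand. Capitals mark matches, on either strand, to the Tcf/Lef letters TCAAAG or to the Sox letters ACAAAG and ACAATG. The Tcf/Lef letters differ from the first Sox letters only at the first base, so that 1 stretch matches only 1 of them.
Sox4, minus strand, chr13:28953650-28953949: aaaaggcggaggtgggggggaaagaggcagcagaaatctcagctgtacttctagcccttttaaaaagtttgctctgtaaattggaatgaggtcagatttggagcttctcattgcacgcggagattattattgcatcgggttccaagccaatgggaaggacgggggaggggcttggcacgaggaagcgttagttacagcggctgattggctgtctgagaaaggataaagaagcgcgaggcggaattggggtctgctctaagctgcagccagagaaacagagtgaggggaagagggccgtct
Sox6, minus strand, most upstream start, chr7:116038695-116038994: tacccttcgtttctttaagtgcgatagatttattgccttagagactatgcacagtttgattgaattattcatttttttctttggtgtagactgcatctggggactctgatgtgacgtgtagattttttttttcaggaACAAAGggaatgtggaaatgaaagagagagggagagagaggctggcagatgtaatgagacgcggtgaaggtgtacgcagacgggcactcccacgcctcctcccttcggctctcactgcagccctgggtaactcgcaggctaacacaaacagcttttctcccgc
Sox6, minus strand, an internal start, chr7:115995037-115995336: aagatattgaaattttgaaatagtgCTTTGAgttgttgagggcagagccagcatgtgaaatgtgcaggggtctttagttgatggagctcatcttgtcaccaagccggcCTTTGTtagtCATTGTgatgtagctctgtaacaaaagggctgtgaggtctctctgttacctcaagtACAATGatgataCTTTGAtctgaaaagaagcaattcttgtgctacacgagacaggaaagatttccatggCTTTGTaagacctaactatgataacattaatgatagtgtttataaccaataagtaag
Sox13, minus strand, chr1:133424163-133424462: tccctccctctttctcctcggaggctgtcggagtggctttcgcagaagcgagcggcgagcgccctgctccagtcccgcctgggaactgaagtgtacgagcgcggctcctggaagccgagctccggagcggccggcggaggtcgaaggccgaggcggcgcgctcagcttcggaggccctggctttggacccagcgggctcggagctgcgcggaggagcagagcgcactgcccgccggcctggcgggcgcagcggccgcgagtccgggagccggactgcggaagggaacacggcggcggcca

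The Sox4 and Sox13 promoters held no match to either set of letters, and the promoters of Sox11 and Sox12 held none. The 6 Sox6 starts accounted for all 3 member promoters with TCAAAG, and 7 of the 12 member promoters, those of Sox2, Sox5 and Sox6, held a Sox match. Among all 32851 promoters of this length in the table, 16% held TCAAAG and 28.6% held a Sox match. GC content ran from 36.7% at a Sox6 start to 76.7% at Sox12, with a median of 52.7% over all promoters, and it was 73.3% at Sox13, 52% at Sox4 and 47% at the most upstream Sox6 start. A match of these letters describes the window and is not evidence of binding.

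Sox9, the subgroup E member, had the highest level of the 10 in every library. It was measured at 158, 178, 130 and 153 normalized CPM in controls 1 to 4 and at 145, 153, 142 and 131 in knockouts 1 to 4. The knockouts lay inside the range of the controls, with means of 155 ± 19.9 and 143 ± 8.93 (SD, n = 4 each). The log2 fold change was −0.11 (standard error 0.16, adjusted p = 0.97), with an interval from −0.44 to 0.21. It kept its sign in all 17 alternative fits that gave a value, from −0.19 to −0.05. Which of the sorted cells gave the Sox9 counts was not tested. Sox9 (ENSMUSG00000000567) lies on chromosome 11 from 112782224 to 112787760 on the plus strand, shares no exon bases with another gene, and received between 1208 and 2659 counts per library, so its estimate is the most precise of the family.

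**Figure D1:**
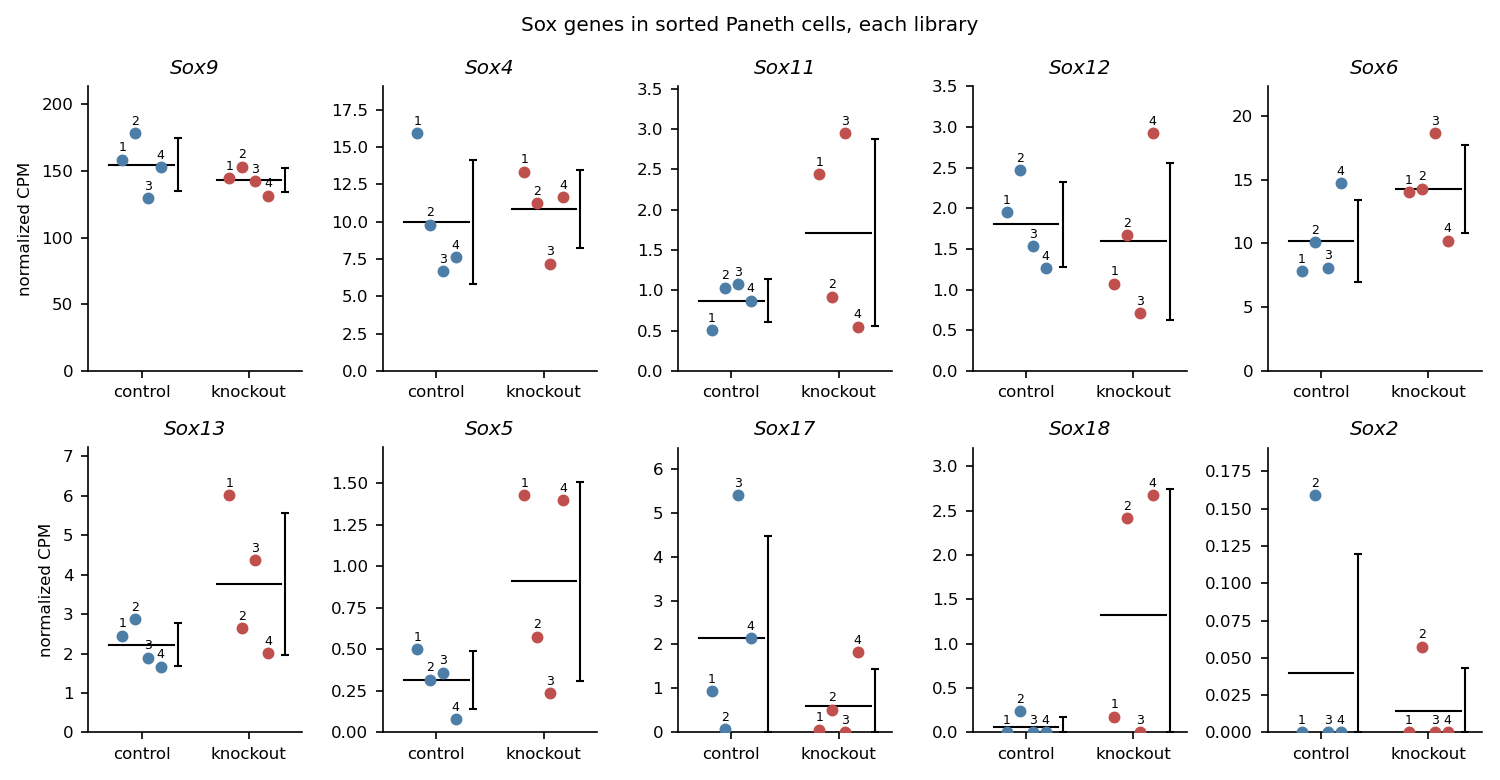
Normalized CPM of the 10 Sox genes (y axis, linear and from 0, scaled per gene) in the 4 controls (blue) and 4 knockouts (red). Points are libraries numbered by replicate, lines are group means and bars 1 SD, cut at 0. The groups overlap in every panel, and Sox18 is above 2 normalized CPM only in knockouts 2 and 4.

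Levels of different genes were compared per length of exon, which counts all annotated exon bases of a gene (4795 for Sox4 and 14832 for Sox6). The order depends on this division, as undivided means were 10.4 normalized CPM for Sox4 and 12.2 for Sox6. Reads on the 54.6% of Sox4 exon bases shared with Gm26735 may not have been counted, so the level of Sox4 may be understated. Sox9 had a mean of 36 normalized CPM per kb over the 8 libraries, 16.6 times that of Sox4 at 2.17, and the ranges of both genes were separate. Among tested genes Sox9 stood at the 96.5th percentile of this measure and Sox4 at the 60.9th. Sox4 in turn lay above Sox6 in 8 of 8 libraries, with means 2.63 times apart and no overlap of the ranges (lowest Sox4 1.39, highest Sox6 1.26 CPM per kb). The ranges of Sox13 and Sox18 reached that of Sox4, to 1.4 and 1.65 CPM per kb in their highest libraries. From Sox6 down, neighbours in the order could not be told apart by their ranges: Sox6 (0.825), Sox13 (0.693), Sox18 (0.425), Sox12 (0.381), Sox17 (0.287), Sox11 (0.156), Sox5 (0.0426) and Sox2 (0.0132 CPM per kb) each had a range that overlapped that of the next gene. The order is that of means over both groups. Sox18 had 0.0368 CPM per kb in the controls and 0.814 in the knockouts, where 2 libraries set its place, and Sox17 had 0.449 and 0.126. Genes farther apart could be separated: the lowest values of Sox6 (0.526) and Sox13 (0.386 CPM per kb) were above the highest of Sox11 (0.354), Sox5 (0.0995) and Sox2 (0.0774). Sox9 alone made up between 83.2% and 90.9% of the summed level per kb of the 10 genes. These shares were 88.2% to 90.9% in the controls and 83.2% to 88.9% in the knockouts and overlapped.

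**Figure D2:**
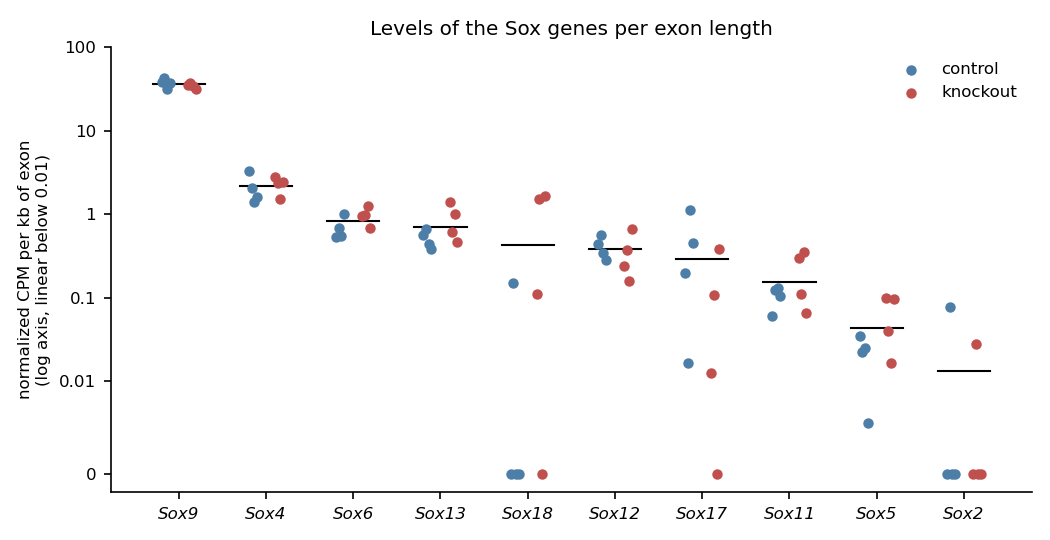
Normalized CPM per kb of exon (y axis, log scale, linear below 0.01) of the 10 genes ordered by their mean over 8 libraries (line). Points are libraries (blue, controls; red, knockouts). Sox9 is separate from all others, Sox4 is separate from Sox6 and overlaps Sox13 and Sox18 in range, and Sox18, Sox17 and Sox2 reach 0 in some libraries.

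The 3 tested genes whose pattern over the 8 libraries was closest to that of Sox9, by Pearson's correlation of log2(normalized CPM + 1), were Gm19202 (r = 0.969), Ssh1 (0.95), a phosphatase that acts on cofilin, and Ppp1r35 (0.938), a centrosomal protein. Without knockout 3, over 7 libraries, the same genes had r = 0.974, 0.961 and 0.961. With 13439 genes compared over 8 libraries that share depth and composition, these values are a description only.

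Of the subgroup C factors, which act in progenitor cells of many tissues, Sox4 (ENSMUSG00000076431, chromosome 13 from 28948919 to 28953713) was the most abundant. It was measured at 15.9, 9.79, 6.66 and 7.6 normalized CPM in controls 1 to 4 and at 13.3, 11.2, 7.19 and 11.6 in knockouts 1 to 4. Control 1 was the highest library and control 3 the lowest, so that all knockouts fell within the range of the controls. The log2 fold change was 0.12 (standard error 0.3, adjusted p = 0.987), with an interval from −0.49 to 0.73, and it ranged from −0.03 without control 3 to 0.44 without control 1, with 0.26 without knockout 3. On the opposite strand Gm26735 covers 54.6% of the exon bases of Sox4. It received 1 count in control 1 and 0 in the other 7 libraries. The strand setting of the counting is not given in the sources used here, and reads that fall on both genes may not have been counted.

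Because Sox4 is expressed in the enteroendocrine and tuft lineages, the markers of these cells are given beside it. The 8 enteroendocrine markers summed to between 208 and 601 normalized CPM in the controls and to between 45.4 and 188 in the knockouts, without overlap. Of these 8 genes, 0 were called, 7 had an unadjusted p under 0.05 with a lower level in the knockouts, against 2.53% of all tested genes, and the median log2 fold change was −1.97. Neurod1, a transcription factor of enteroendocrine differentiation, averaged 36.6 ± 16.3 normalized CPM among controls and 7.55 ± 3.88 among knockouts, with every knockout below every control, as in 1.93% of all tested genes (log2 fold change −2.27, standard error 0.4, adjusted p = 0.0629). The fit with no filter called Neurod1 (edgeR, adjusted p = 4.9e-16) and the gut hormone gene Sct (adjusted p = 0.000684). It called 0.783% of all its genes. Standard errors in that fit were smaller than in the main fit, at 0.25 against 0.4 for Neurod1 and 0.22 against 0.38 for Sct. Its low p-values for these genes rest on those errors, and the main fit called neither gene. The 6 tuft markers summed to between 154 and 519 in the controls and to between 84.8 and 336 in the knockouts, and 0 of the 5 tested were called (median log2 fold change −0.94). Of 7 stem cell markers tested, 0 were called and 3 had an unadjusted p under 0.05 with a lower level in the knockouts (median log2 fold change −0.45), and of 4 enterocyte markers tested, 0 were called and 2 had (median −0.90), as had 2 of 7 goblet markers (median −0.03). With no filter, the stem cell marker Slc12a2 (edgeR, adjusted p = 0.00879) and the enterocyte marker Fabp2 (adjusted p = 0.00156) were called. Their standard errors there were 0.2 and 0.23, against 0.27 for each in the main fit, which called neither. The part of these cells in the level of Sox4 was not tested. In bulk libraries, fewer cells of a type and less RNA per cell cannot be told apart.

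Sox11 (ENSMUSG00000063632, chromosome 12 from 27334264 to 27342574) had 8, 13, 12 and 11 counts in controls 1 to 4 and 41, 16, 25 and 9 in knockouts 1 to 4. In normalized CPM, knockouts 1 and 3 (2.44 and 2.95) lay above all controls (0.503 to 1.08), while knockouts 2 and 4 (0.922 and 0.548) lay inside their range. The log2 fold change was 0.95 (standard error 0.59, adjusted p = 0.859), with an interval from −0.23 to 2.14, and it ran from 0.58 without knockout 3 to 1.25 without knockout 4, uncalled in all 8 fits without 1 library. Sox12 (ENSMUSG00000051817, chromosome 2 from 152393611 to 152398063) had 1.95, 2.47, 1.53 and 1.27 normalized CPM in controls 1 to 4 and 1.07, 1.67, 0.707 and 2.92 in knockouts 1 to 4. Both the lowest and the highest library were knockouts, and the log2 fold change was −0.16 (standard error 0.49, adjusted p = 0.99), with an interval from −1.15 to 0.83. With 1 library left out it ran from −0.62 (without knockout 4) to 0.06 (without knockout 3), and it was above 0 in 3 of these 8 fits.

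The subgroup D factors lack a transactivation domain of their own. Sox5 and Sox6 assist Sox9 in cartilage, and Sox13 binds a Tcf factor. Their group means were all higher in the knockouts, with overlap in each gene. Sox6 (ENSMUSG00000051910, chromosome 7 from 115470872 to 116038796) had 7.8, 10.1, 8.1 and 14.7 normalized CPM in controls 1 to 4 and 14, 14.3, 18.6 and 10.2 in knockouts 1 to 4. Control 4 lay among the knockouts and knockout 4 just above control 2. The means were 10.2 ± 3.2 and 14.3 ± 3.43, and the log2 fold change was 0.48 (standard error 0.27, adjusted p = 0.817), with an interval from −0.05 to 1.01. With 1 library left out it ran from 0.33 (without knockout 3) to 0.71 (without control 4), and it was called in none of these 8 fits.

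Sox13 (ENSMUSG00000070643, chromosome 1 from 133382303 to 133424377) had 2.45, 2.87, 1.89 and 1.66 normalized CPM in controls 1 to 4 and 6.02, 2.65, 4.36 and 2.01 in knockouts 1 to 4. Knockouts 1 and 3 were above all controls, and knockouts 2 and 4 were among them. The log2 fold change was 0.75 (standard error 0.41, adjusted p = 0.817), with an interval from −0.07 to 1.57. With 1 library left out it ran from 0.42 (without knockout 1) to 0.96 (without knockout 4), and it was called in none of these 8 fits. Sox5 (ENSMUSG00000041540, chromosome 6 from 143828425 to 144781977) did not pass the filter on low counts, with 8, 4, 4 and 1 counts in controls 1 to 4 and 24, 10, 2 and 23 in knockouts 1 to 4. In normalized CPM knockouts 1 and 4 (1.43 and 1.4) were the highest libraries, and knockout 3 (0.236) lay inside the range of the controls (0.0792 to 0.503). Knockouts 1, 2 and 4 were above every control. In the fit with no filter the adjusted p of Sox5 was 0.619 (edgeR). It was also tested in 5 fits without 1 library, in which it passed the filter only through the knockouts, and was called in 0 of them (adjusted p = 0.293 without knockout 3 and 0.828 to 0.973 without 1 control, edgeR). The antisense gene Sox5os1 covers 9.25% of the exon bases of Sox5 and had 0 counts in every library.

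**Figure D3:**
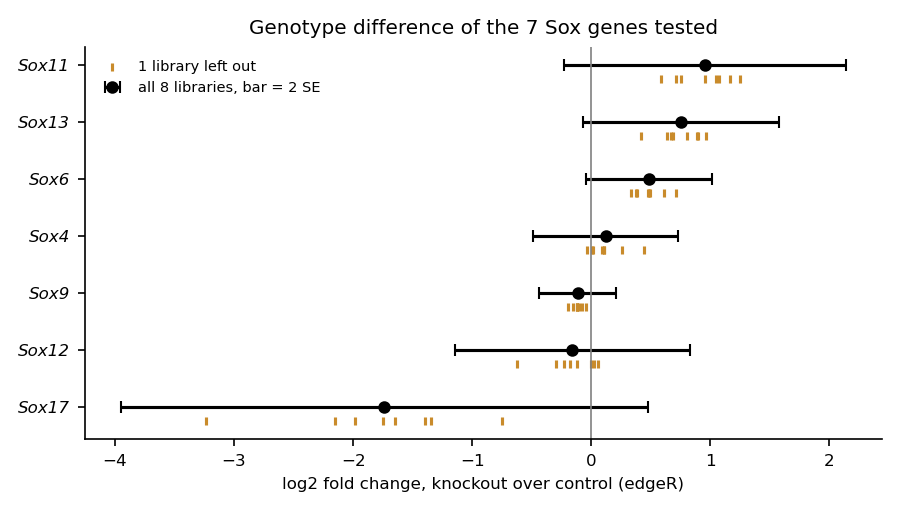
Log2 fold changes of the 7 tested Sox genes, knockout over control (x axis, edgeR). Black points are the fits with all 8 libraries with bars of 2 standard errors, and orange ticks are the fits with 1 library left out. Every bar crosses 0, and the bar of Sox9 is the shortest and that of Sox17 the longest.

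The subgroup F factors Sox17 and Sox18 are known from endothelium, and Sox17 also from the early endoderm. Sox17 (ENSMUSG00000025902, chromosome 1 from 4490931 to 4497354) had 15, 1, 60 and 27 counts in controls 1 to 4 and 1, 9, 0 and 30 in knockouts 1 to 4. The libraries of both groups were spread widely. In normalized CPM control 3 (5.4) was highest, control 2 (0.0796) was nearly as low as knockout 1 (0.0596), and knockout 4 was at 1.83. The log2 fold change was −1.74 (standard error 1.11, adjusted p = 0.869), with an interval from −3.95 to 0.47. It was −0.75 without control 3, −3.24 without knockout 4 and −1.40 without knockout 3. Gm37587, on the opposite strand over 16.9% of its exon bases, had 0 counts in every library.

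Sox18 (ENSMUSG00000046470, chromosome 2 from 181669836 to 181671640) had 0, 3, 0 and 0 counts in controls 1 to 4 and 3, 42, 0 and 44 in knockouts 1 to 4. Its reads came almost entirely from knockouts 2 and 4, while knockouts 1 and 3 were as low as the controls. The mean of the knockouts, 1.32 ± 1.43 normalized CPM, was at least 4.88-fold higher than a floor of 3 counts in a control library (0.27 normalized CPM). It did not pass the filter on low counts. In a fit with no filter it was the 1 Sox gene called of the 10 (adjusted p = 0.00303, edgeR), in a fit that called 0.783% of 37039 genes, 0.597% as higher in the knockouts. That call rests on 2 of 4 knockouts.

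Endothelial cells lack EpCAM, so the sort would remove them, and 12 endothelial markers were examined beside both factors. Their sum was between 9.47 and 10.8 normalized CPM in the controls and between 9.78 and 13.4 in the knockouts. Most of it came from the adhesion molecules Pecam1 (4.41 ± 1.04 among controls and 4.62 ± 1.22 among knockouts) and Esam (4.15 ± 1.29 and 2.21 ± 1.42 normalized CPM), neither of which was called. Cdh5, Kdr, Tie1, Emcn, Cldn5 and Erg each had a group mean of at most 0.148 normalized CPM. The part of endothelial cells in the Sox17 and Sox18 counts was not tested. Flt1, a Vegf receptor, had 4, 2, 1 and 0 counts in controls 1 to 4 and 67, 41, 27 and 37 in knockouts 1 to 4. It was the 1 marker called (log2 fold change 4.4, standard error 0.65, adjusted p = 0.0217), and it passed the filter on low counts only through the knockouts. Without Flt1 the other 11 markers summed to between 9.31 and 10.6 in the controls and to between 6.6 and 9.41 in the knockouts, and in knockouts 2 and 4, which held the Sox18 counts, to 8.52 and 8.4.

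Sox2 (ENSMUSG00000074637, chromosome 3 from 34650405 to 34652461), a factor of pluripotent, neural and foregut cells, had 2 counts in control 2, 1 count in knockout 2 and 0 in the other 6 libraries. It lies inside the span of the non-coding gene Sox2ot, which had 0 to 6 counts per library. After TMM scaling 3 counts correspond to between 0.173 and 0.353 normalized CPM, so that Sox2 was not detectable above this level. Such limits cover counting error only, since PCR copies were counted separately. Of 12 gastric and foregut genes, 0 passed the filter, and the sum of their levels was between 2.07 and 2.61 normalized CPM in the controls and between 1.1 and 2.83 in the knockouts. Gkn2 and Tff1 had no count, and Pgc had 0.922 ± 0.565 normalized CPM among controls and 0.383 ± 0.236 among knockouts.

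The other 10 genes of the family were measured the same way. Of these, 1, Sox8, was tested, and 0 were called. Sox8, a subgroup E gene like Sox9, averaged 10.4 ± 1.82 normalized CPM among controls and 8.73 ± 4.25 among knockouts, with overlap (log2 fold change −0.27, standard error 0.31, adjusted p = 0.954). The value was −0.65 without knockout 3 (adjusted p = 0.29) and −0.10 without knockout 1. Sox21 did not pass the filter. It had 6, 1, 1 and 0 counts in controls 1 to 4 and 96, 35, 0 and 52 in knockouts 1 to 4, so that knockouts 1, 2 and 4 were above every control and knockout 3 was at 0. With no filter it was called (edgeR, adjusted p = 7.4e-06), on 3 of 4 knockouts. In the 5 fits without 1 library in which it was tested, it passed the filter only through the group where it is high. It was called in 1 of them, without knockout 3 (edgeR, adjusted p = 0.00799), a fit that called 1.08% of 14086 genes, 0.944% as higher in the knockouts, and the adjusted p was 0.394 to 0.667 without 1 control. An antisense gene, Gm4675, covers 18.8% of its exon bases and had 0 to 5 counts per library. Sox10, Sox15 and Sry had no count, and Sox1, Sox3, Sox7, Sox14 and Sox30 had at most 6 in a library.

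The Wnt partners of the SOX proteins were taken from a list of 13 genes, β-catenin (Ctnnb1), the Tcf/Lef factors and their co-factors. Of the 12 tested, 0 were called, and 4 had an unadjusted p under 0.05, all of them higher in the knockouts, as were 4.35% of all tested genes. Their median log2 fold change was 0.09, with 11 of the 12 above 0, against 50.9% of all tested genes. Tcf7, a Tcf factor and Wnt target, averaged 5.57 ± 1.62 normalized CPM among controls and 12.2 ± 6.86 among knockouts, with overlap. Its log2 fold change was 1.13 (edgeR, standard error 0.43, adjusted p = 0.589). The fit with no filter, which called 0.783% of its genes, called Tcf7 (edgeR, adjusted p = 0.0202) with a smaller standard error of 0.3. Lef1 averaged 4.14 ± 1.91 normalized CPM among controls and 8.83 ± 1.58 among knockouts, with every knockout above every control (log2 fold change 1.1, standard error 0.34, adjusted p = 0.45). The β-catenin co-factor Bcl9l had 3.51 ± 0.843 and 6.69 ± 1.33, also without overlap (log2 fold change 0.92, standard error 0.29, adjusted p = 0.468). Over all tested genes, every knockout lay above every control in 2.59%. The most abundant factor of the list, Tcf7l2, was at 50.4 ± 7.95 and 53.6 ± 2.23 normalized CPM (log2 fold change 0.09, adjusted p = 0.979). Ctnnb1 was at 16.6 ± 5.34 and 25.6 ± 7.48 (log2 fold change 0.63, adjusted p = 0.68), and the fold changes of Tle1 and Bcl9 were 0.02 and 0.04. Tcf7, Lef1 and Bcl9l were named after their values were seen. On the opposite strand other genes cover 13.8% of the exon bases of Lef1 and 8.28% of those of Bcl9l.

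Of 12 cartilage genes that Sox9 activates with Sox5 and Sox6 in chondrocytes, all had a count in some library, but 1, Col9a3, was tested. It averaged 1.94 ± 0.79 normalized CPM among controls and 3.31 ± 1.36 among knockouts (log2 fold change 0.78, standard error 0.44, adjusted p = 0.834), with overlap. The 12 together summed to between 2.23 and 4.75 normalized CPM in the controls and to between 4.24 and 7.85 in the knockouts, against 130 to 178 for Sox9 alone.

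**Figure D4:**
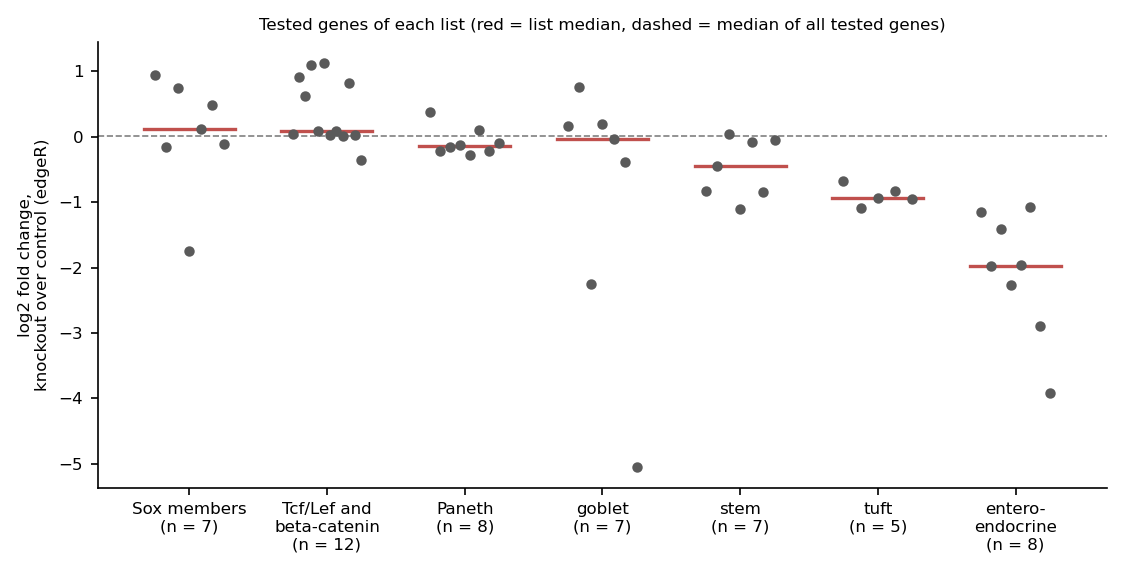
Log2 fold changes, knockout over control (y axis, edgeR), of the tested genes of the Sox list and of 6 other lists (x axis, n = genes tested). Red lines are list medians, and the dashed line is the median of all tested genes, 0.01. The 8 enteroendocrine and 5 tuft genes lie below 0. Above and below 0 lie 4 and 3 Sox genes, 2 and 6 Paneth genes, and 11 and 1 Tcf/Lef genes.

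The libraries form 2 runs of consecutive label numbers, each with 2 controls and 2 knockouts. The labels do not say whether these are batches or sequencing runs. Within the first and the second run the log2 ratio of mean normalized CPM was −0.18 and −0.05 for Sox9, 0.66 and 0.34 for Sox6, 0.7 and 0.84 for Sox13, 1.13 and 0.84 for Sox11, and −0.82 and −2.05 for Sox17. For Sox4 it was −0.06 and 0.4 and for Sox12 −0.69 and 0.37, so that these genes differed in sign between the runs. With the run as a block in the fit, 0 of the 7 tested Sox genes were called, against 0.179% of all tested genes.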

How the data were processed

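Per the methods, the authors mapped reads with GSNAP (mm10) and kept unique hits for counting over Ensembl 92 genes by featureCounts 1.6.3. The deposited values are raw counts with no normalization. The strand setting is not given in the sources used here. Libraries followed Smart-seq2, in which oligo-dT-primed cDNA is amplified by PCR. Groups are the labelled genotypes, and replicate numbers are names that pair no samples. The 92 spike-in rows were left out. A symbol was found for 53620 of 53801 Ensembl identifiers, and the spans of all 10 Sox genes are the same in GENCODE M21 (GRCm38). No 2 libraries agreed within sampling noise (smallest chi-square per degree of freedom 10.8). The library titles carry numbers whose meaning is not stated, and no replicate numbers. Control 4 and knockout 4 share 1 of these title numbers. The study describes independent mice.

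Genes were tested with edgeR 4.0.16 in R 4.3.3 (TMM factors, robust quasi-likelihood fit), with DESeq2 1.42.0 and limma 3.58.1 as alternatives. The 13439 genes that passed filterByExpr (minimum count 10, minimum total 15) were tested, and p was adjusted over all of them (Benjamini-Hochberg). Calls needed an adjusted p no higher than 0.05 together with a log2 fold change no smaller than 0.5 in size. Standard errors were approximated from the F statistic. Total counts were between 13037832 and 14380240 per library. Effective library sizes after TMM scaling were 8487423 to 17362590, so that 3 counts are 0.173 to 0.353 normalized CPM. The functions were tested on simulated data. The Sox genes and the other lists were chosen with earlier results of these data known. Named are all 10 Sox genes, genes of the other lists past both limits or among their most abundant, and some chosen after their values were seen (Sox21, Tcf7, Lef1, Bcl9l, Neurod1, Sct, Slc12a2, Fabp2, Pecam1, Esam).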

Additional observations from a re-analysis of the deposited data

Results flagged for a closer look

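In 21 groups of 4 libraries (the Sox genes with more than 3 counts in a library of the group, the TMM factor and the mitochondrial share), the highest and the lowest library were compared with the rest, and 2 had a library whose gap to its nearest neighbour, as a share of the range, was above Dixon's 95% critical value. Chance flags about 1 in 20 groups. Both were knockout 3 among the knockouts: its TMM factor was 0.632 (gap 0.83 of the range) and its share of mitochondrial counts was 2.04% (gap 0.957). No Sox gene had such a library. In knockout 3 Sox17, Sox18 and Sox21 had 0 counts, and Sox11 and Sox6 had the highest normalized CPM of the 8 libraries.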

How the results depend on the processing

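Of the 10 listed Sox genes, the number called was 0 in every fit, with all libraries or with 1 left out (0 to 0), except with no filter on low counts, where it was 1 (Sox18). The number of all genes called, 25, was 138 with DESeq2's Wald test, 95 with limma-voom, 290 with no filter, 13 with at least 10 counts in every library, 38 at a false discovery rate of 10% with no fold limit, and 10 to 152 with 1 library left out, the highest without knockout 3. Of 116 log2 fold changes of the 7 tested Sox genes under alternatives, 112 kept their sign, and all 116 stayed uncalled, though some crossed the fold limit alone (Sox6, Sox12 and Sox13). The sign turned for Sox4 without control 3 (−0.0326) and for Sox12 without control 2 (0.0195), without knockout 1 (0.0007) and without knockout 3 (0.0591), and the cause was not tested. With 1 library left out the values were −0.0326 to 0.4432 for Sox4 and −0.6215 to 0.0591 for Sox12. The largest changes in size were those of Sox17, from −3.24 to −0.75. Sox2, Sox5, Sox17 and Sox18 had single-digit counts in most libraries of a group, and Sox17 (0 to 60) and Sox18 (0 to 44) also varied widely between libraries of nearly equal total count. No paired analysis was made, because the labels give no replicate numbers or litters. The title number shared by control 4 and knockout 4 covers only those 2 libraries. The run of label numbers was fitted as a block instead, with 24 genes and 0 of the 7 tested Sox genes called.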
